A study of Mus musculus with 2 samples.

Results

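The genes described here encode 3 families of enzymes that attach a polar group to small molecules: the UDP-glucuronosyltransferases (Ugt), the cytosolic glutathione S-transferases (Gst) and the cytosolic sulfotransferases (Sult). They were chosen by symbol: protein-coding mouse genes named Ugt, Gst of the alpha, kappa, mu, omega, pi, theta or zeta class, or Sult, each followed by a number. GENCODE M21 lists 65 such symbols and 64 had a row in the deposited tables, 21 Ugt, 22 Gst and 21 Sult genes of 43346 Ensembl genes. Ugt2a1 was not analysed here. RNA longer than 200 nt came from the intestine of 2 newborn littermates (0 days) of the B6NCrl mouse strain, from 10 ng of RNA per library, and their sex was not collected. Each pup gave 1 library, called pup 1 and pup 2, and both belong to 1 group with no treatment and no mutant allele named in the labels, so that the data give levels at birth and the spread between littermates. The stretch of intestine taken is not stated in the sources used here.

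Conjugation makes lipid-soluble compounds easier to excrete. A Ugt enzyme moves glucuronic acid from UDP-glucuronic acid onto bilirubin, steroids, bile acids and drugs at the endoplasmic reticulum membrane, a Gst enzyme joins the thiol of glutathione to an electrophile, and a Sult enzyme moves sulfate from the donor PAPS onto phenols, amines and steroids. The intestinal epithelium is known as the first tissue to conjugate what is swallowed and as the tissue where bacterial and host glucuronidases can split such conjugates again.

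Levels are deposited TPM, transcript abundances scaled to transcript length and to a fixed total per library, and pup 1 is given before pup 2. The total expected count, the authors' estimated number of reads, was 44568098 in pup 1 and 34797495 in pup 2. A gene with at least 1 TPM in each pup was called detected. With 2 pups, the smallest p that exact sign-flipping allows is 0.5, and no p-value is given. A gene with no read could still hold up to 3 counts, which for the members without a read is between 0.0397 and 0.153 TPM. Such limits, and the intervals given further on, cover counting error only, because each pup gave 1 library. The reads carry no molecular identifiers and are not independent molecules, so the counting error may itself be larger than given. In bulk tissue, fewer cells of a type and less RNA per cell cannot be told apart.

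All 8 enterocyte markers, such as the fatty acid carrier Fabp1, were detected, with 57857 and 52773 TPM in sum, and the 5 markers each of general epithelium, smooth muscle and fibroblasts were detected too, as were 4 each of goblet cells, neurons and glia. Of 9 hepatocyte markers 4 were detected, with 572 and 569 TPM in sum, mostly from Ttr at 335 and 310 TPM, Cps1 at 174 and 193 TPM and Serpina1a at 53.9 and 57.2 TPM, while Alb was at 0.79 and 0.86 TPM and Cyp2e1 at 0.03 and 0.06 TPM. None of 3 kidney proximal tubule markers was detected, at 0.06 and 0.15 TPM in sum. The 2 pups were not alike in every marker list. The 4 gastric markers summed to 60.4 TPM in pup 1 and 296 TPM in pup 2, the 5 red cell markers to 1711 and 2574 TPM, and the 6 exocrine pancreas markers to 91.0 and 134 TPM, all higher in pup 2. The 16 posterior HOX genes measured, which mark position along the gut, summed to 14.5 TPM in pup 1 and 2.41 TPM in pup 2.

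Gst genes were nearly all expressed, while most Ugt and Sult genes were not. Detected were 20 of 22 Gst genes, 8 of 21 Ugt genes and 7 of 21 Sult genes, in all 35 of 64 (54.7%), against 59.1% of all 21474 protein-coding genes. The total is thus near the background, and the families lie on either side of it. Each pup had 100 TPM or more of 7 members, namely Gstp1, Gsto1, Gstm5, Gsta1, Gstp2, Sult1b1 and Sult1d1, and 5.78% of protein-coding genes reached that level. No read in either pup was assigned to 14 members, 3 Ugt, 1 Gst and 10 Sult genes, against 18.2% of protein-coding genes.

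The median Gst gene had 38.3 TPM in pup 1 and 41.3 TPM in pup 2, the median Ugt gene 0.28 and 0.36 TPM and the median Sult gene 0 TPM in both, where the median protein-coding gene had 2.89 and 3.08 TPM. On the log2(TPM + 0.1) scale the Gst median exceeded the Ugt median by 6.58 ± 0.12 and the Sult median by 8.64 ± 0.076, and the Ugt median exceeded the Sult median by 2.06 ± 0.19 (SD, n = 2 pups). These distances rest on the silent members: over detected members alone, the difference of Gst over Ugt was 0.07 as a mean of the pups. In that setting the Gst median was above the Ugt median in pup 1 and below it in pup 2. Summed levels ranked differently from medians. Gst genes summed to 2145 TPM in pup 1 and 2313 TPM in pup 2, Sult genes to 481 and 531 TPM, and Ugt genes to 301 and 334 TPM. Gst genes therefore held 73.3% and 72.8% of the members' TPM, Sult genes 16.4% and 16.7%, and Ugt genes 10.3% and 10.5%. All members together made up 0.342% and 0.373% of the TPM of protein-coding genes.

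**Figure D1:**
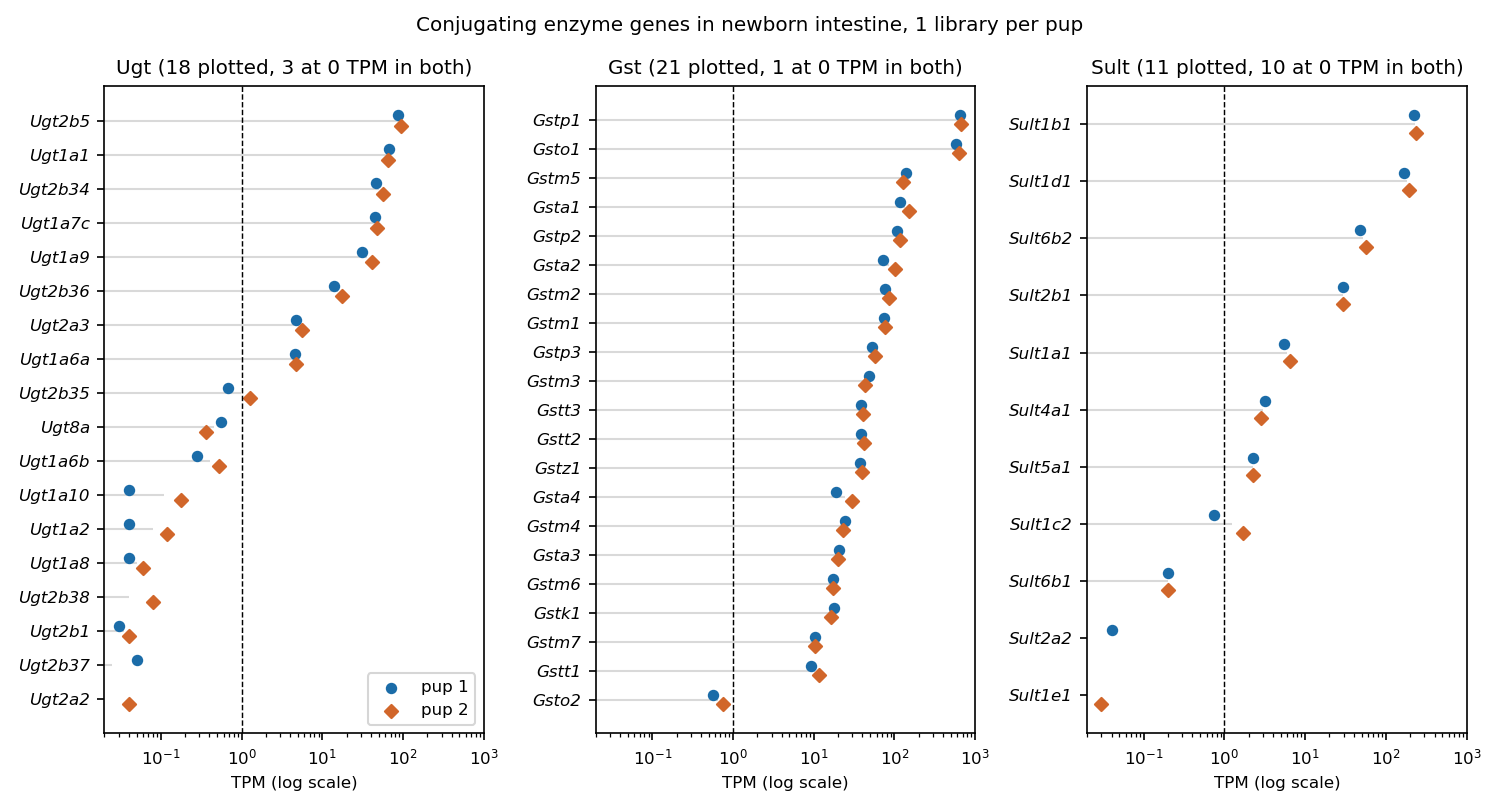
TPM (log scale) of each member in pup 1 (circles) and pup 2 (diamonds) by family, genes ordered by mean level, with grey lines to the mean and a dashed line at 1 TPM. A point is missing where that pup had 0 TPM, and members at 0 TPM in both pups are counted in the titles. The plotted Gst genes other than Gsto2 lie above 9 TPM, while Ugt and Sult genes run down to single reads.

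Among the transferases of glutathione, the pi and omega classes led. Gstp1, the pi class enzyme that conjugates many electrophiles, had 648 and 667 TPM, per length more than any other member in both pups. Gsto1, an omega class enzyme with thioltransferase and dehydroascorbate reductase activity, followed with 575 and 632 TPM. Without length scaling the order turns round, with 15341 and 12089 expected counts for Gstp1 and 22344 and 18796 for Gsto1. By mean level both stood above 99 in 100 protein-coding genes, at percentiles 99.2 and 99.1. Gstp1 alone held 30.2% and 28.8% of the Gst TPM.

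The pi class lies on chr19:4035407-4059569 (GRCm38, here and below), where Gstp1, Gstp2 and Gstp3 follow one another on the minus strand, with 2300 bases between Gstp1 and Gstp2. Gstp2 had 107 TPM in pup 1 and 118 TPM in pup 2, and Gstp3 had 53.1 and 56.6 TPM. Gstp1 exceeded Gstp2 in both pups, 6.05-fold and 5.65-fold. The coding sequences of Gstp1 and Gstp2 were 98.1% identical over 630 bases with a longest identical run of 369 bases, so reads must be divided between them, and the deposited posterior standard deviation of the count was 2.27% of the Gstp2 count in pup 1 and 2.44% in pup 2. The processed pseudogene Gstp-ps, which the rule does not include, had 14.2 and 13.8 TPM. The promoters of Gstp1 and Gstp2 are shown because the genes are near copies that differ in level. They run from 250 bases before to 50 bases after the start in RefSeq on GRCm38.p6, 5′ to 3′ on the genes' own strand, from chr19:4037863-4038162 for Gstp1 and chr19:4042172-4042471 for Gstp2, and capitals mark bases without an identical partner in a global alignment of the pair.
Gstp1: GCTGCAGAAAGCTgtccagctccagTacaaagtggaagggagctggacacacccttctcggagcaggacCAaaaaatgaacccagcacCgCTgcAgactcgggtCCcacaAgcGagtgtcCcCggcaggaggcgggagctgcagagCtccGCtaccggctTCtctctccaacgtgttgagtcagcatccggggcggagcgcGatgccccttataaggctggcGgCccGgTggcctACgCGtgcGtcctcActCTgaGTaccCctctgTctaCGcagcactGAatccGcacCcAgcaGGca
Gstp2: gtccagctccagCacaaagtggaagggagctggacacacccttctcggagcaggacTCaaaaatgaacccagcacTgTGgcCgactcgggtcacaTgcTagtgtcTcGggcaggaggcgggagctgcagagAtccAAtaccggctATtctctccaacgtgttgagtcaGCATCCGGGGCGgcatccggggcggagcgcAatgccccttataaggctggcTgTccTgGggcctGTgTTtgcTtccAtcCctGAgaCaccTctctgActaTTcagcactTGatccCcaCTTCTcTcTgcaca
In that alignment 243 of 318 columns were identical (76.4%), and 57 bases of each are in capitals. The Gstp2 window lies inside the annotated gene (chr19:4040285-4046023), and the sequence at the annotated gene start was not compared.

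The omega pair is unequal. Gsto1 and Gsto2 lie on chr19:47854970-47886324 on the plus strand with 744 bases between them. Gsto2, which in humans has high dehydroascorbate reductase activity, had 0.57 TPM in pup 1 and 0.75 TPM in pup 2, from 21 and 22 expected counts. Gsto1 was 1009-fold and 843-fold higher than Gsto2. The coding identity of the pair was 65.9%. The Gsto1 promoter was 44.2% identical to the Gsto2 window at chr19:47865295-47865594, and the Gsto2 window at chr19:47865544-47865843 was not compared.

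Every gene of the mu class, whose enzymes act on aryl halides and epoxides, was detected. The 7 genes fill chr3:107895821-108044894, where gene order runs from Gstm5 through Gstm7, Gstm6, Gstm3, Gstm2 and Gstm1 to Gstm4. Gstm5 had 140 TPM in pup 1 and 127 TPM in pup 2, Gstm2 had 75.9 and 86.5 TPM, and Gstm1 had 74.0 and 77.4 TPM. Gstm5 stood above Gstm1 by 1.89-fold and 1.65-fold, whereas Gstm2 and Gstm1 were within 1.03-fold and 1.12-fold of each other, and their order turns round without length scaling. Gstm3 had 48.8 and 43.3 TPM, Gstm4 24.6 and 22.9 TPM, Gstm6 17.4 and 17.5 TPM, and Gstm7 10.5 and 10.4 TPM. Gstm5 at one end of the cluster was the highest in both pups, and Gstm4 at the other end was below Gstm3. Identity between coding sequences of mu genes ran from 59.2% to 89.4%. Gstm5 was spread over isoforms, with 74.9 and 69.8 TPM for the transcript Gstm5-201 and 56.2 and 45.3 TPM for Gstm5-204.

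All 4 genes of the alpha class that met the rule were detected, and alpha enzymes also reduce organic hydroperoxides. Gm10639, a protein-coding relative of the families that the rule does not include by its symbol, had 15.6 TPM in pup 1 and 20.4 TPM in pup 2. Gsta1 had 116 TPM in pup 1 and 152 TPM in pup 2, and Gsta2 had 72.6 and 101 TPM. Gsta4, which conjugates the lipid peroxidation product 4-hydroxynonenal, had 19.1 and 29.6 TPM, and Gsta3, which in mice detoxifies the epoxide of aflatoxin, had 20.5 and 20.2 TPM. Gsta1 was above Gsta2 by 1.59-fold and 1.51-fold and above Gsta4 by 6.06-fold and 5.13-fold, while Gsta4 and Gsta3 had no constant order. Gsta4, Gsta1 and Gsta2 lie on chr9:78182774-78355788, and Gsta3 lies apart on chr1:21240589-21265661. Gsta1 and Gsta2 were 97.6% identical in coding sequence, with a posterior standard deviation of at most 0.831% of the count.

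Theta, zeta and kappa genes were lower. Gstt3 had 38.5 TPM in pup 1 and 41.2 TPM in pup 2, and Gstt2 38.1 and 41.4 TPM, with no constant order between them. Gstt1, the theta enzyme known for acting on halogenated methanes, had 9.31 and 11.5 TPM, below Gstt2 by 4.09-fold and 3.60-fold. Gstt4, in the same cluster on chr10:75774115-75837424, had no read in either pup, a limit of 0.0978 and 0.128 TPM. Gstz1, the maleylacetoacetate isomerase of tyrosine breakdown, had 37.8 and 39.3 TPM, and Gstk1, a kappa enzyme of mitochondria and peroxisomes, 18.0 and 16.4 TPM. Gstz1 exceeded Gstk1 by 2.10-fold and 2.39-fold.

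Per length, glucuronidation genes were led by Ugt2b5 and Ugt1a1. Ugt2b5, a member of the subfamily that acts on steroids and bile acids, had 85.8 TPM in pup 1 and 94.0 TPM in pup 2, which was 28.5% and 28.2% of the Ugt TPM. Ugt1a1, the bilirubin glucuronosyltransferase, had 67.7 and 64.9 TPM. None of the Ugt genes reached 100 TPM in either pup.

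The Ugt1a genes share most of their messenger RNA. Each of the 9 has its own first coding exon along chr1:88055388-88220002 on the plus strand and joins it to the same 4 downstream exons, at chr1:88215044-88215175, chr1:88215795-88215882, chr1:88216138-88216357 and chr1:88218127-88218997. These 1311 bases make up 40.6% of the annotated Ugt1a7c transcript, which has 1005 further bases at its 3′ end, and 56.9% to 59.9% of the other 8. Reads in the shared exons carry no mark of their gene and were divided by the authors' quantifier, so the levels of the 9 genes depend on that division.

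Within the locus, expressed genes stood between genes with few or no reads. In gene order from the 5′ end, Ugt1a10 had 0.04 TPM in pup 1 and 0.18 TPM in pup 2, Ugt1a9 31.0 and 40.8 TPM, and Ugt1a8 0.04 and 0.06 TPM. Ugt1a7c came next with 45.4 and 47.9 TPM, then Ugt1a6b with 0.28 and 0.53 TPM and Ugt1a6a with 4.61 and 4.66 TPM. Ugt1a5 had no read in either pup, and Ugt1a2 had 0.04 and 0.12 TPM. Ugt1a1, the first exon nearest to the shared exons, was per length the highest of the locus in both pups. Without length scaling the order held in pup 1 alone, with 5172.3 and 3801.4 expected counts for Ugt1a1 and 4784.1 and 3868.4 for Ugt1a7c. Ugt1a1 was above Ugt1a6a, an enzyme for planar phenols, by 14.7-fold and 13.9-fold, and Ugt1a7c was above it by 9.84-fold and 10.3-fold. The deposited posterior standard deviation was 1.61% and 1.91% of the count for Ugt1a1, 1.45% and 1.57% for Ugt1a7c, 2.83% and 2.84% for Ugt1a9, 7.24% and 8.18% for Ugt1a6a, and 56.7% and 39.2% for Ugt1a10. Ugt1a6a was the only detected member above 5%, and its close copy Ugt1a6b, 98.4% identical in coding sequence, was at 33.2% and 30.6%. For 16 of the 35 detected members that standard deviation was 0 in both pups.

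**Figure D2:**
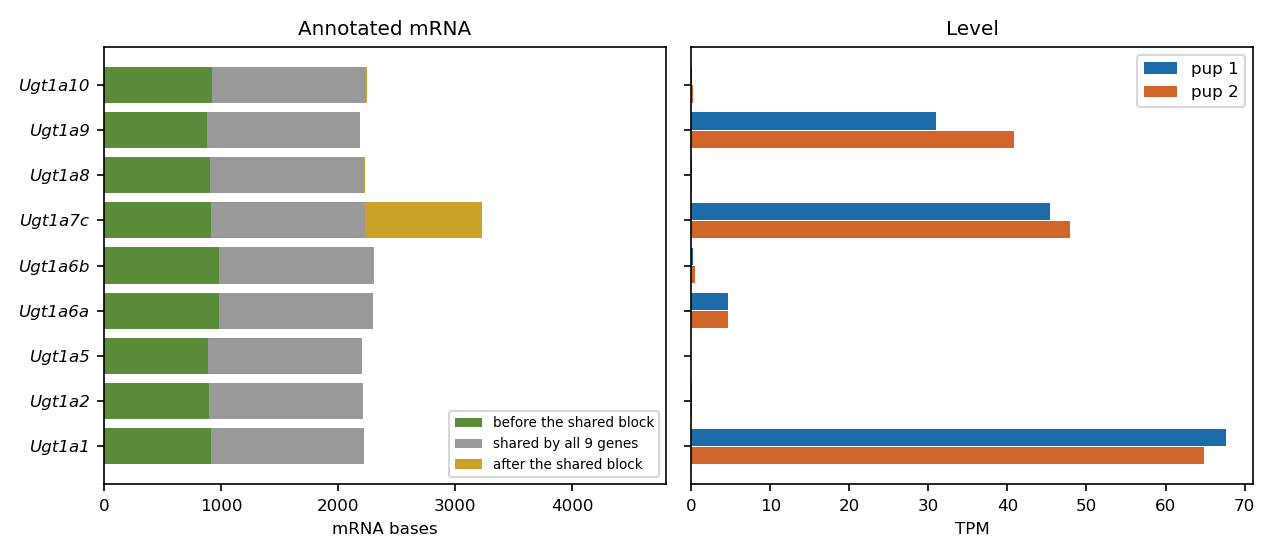
Left, annotated mRNA length in bases of one transcript per Ugt1a gene, split into the part before the shared block, the 1311 bases shared by all 9 genes and the part after it. Right, TPM of each gene in pup 1 and pup 2, genes in chromosome order from the 5′ end; Ugt1a1, Ugt1a7c and Ugt1a9 stand above 30 TPM and Ugt1a6a near 4.6 TPM, while the rest lie under 1 TPM.

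Ugt1a9 and Ugt1a10 are neighbours in this locus that are close in sequence and far apart in level, and their promoters are shown for that contrast. Their coding sequences were 95.3% identical and their own parts, before the shared exons, 86.9%. The RefSeq promoters (GRCm38.p6, plus strand) lie at chr1:88070529-88070828 for Ugt1a9 and chr1:88055161-88055460 for Ugt1a10, and capitals again mark bases without an identical partner in the alignment.
Ugt1a9: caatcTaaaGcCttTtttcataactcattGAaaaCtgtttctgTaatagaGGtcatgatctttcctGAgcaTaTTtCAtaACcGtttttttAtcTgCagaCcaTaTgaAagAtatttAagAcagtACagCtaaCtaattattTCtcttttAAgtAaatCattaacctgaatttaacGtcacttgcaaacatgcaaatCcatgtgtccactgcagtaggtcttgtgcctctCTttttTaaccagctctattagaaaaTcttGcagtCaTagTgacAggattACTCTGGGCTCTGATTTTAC
Ugt1a10: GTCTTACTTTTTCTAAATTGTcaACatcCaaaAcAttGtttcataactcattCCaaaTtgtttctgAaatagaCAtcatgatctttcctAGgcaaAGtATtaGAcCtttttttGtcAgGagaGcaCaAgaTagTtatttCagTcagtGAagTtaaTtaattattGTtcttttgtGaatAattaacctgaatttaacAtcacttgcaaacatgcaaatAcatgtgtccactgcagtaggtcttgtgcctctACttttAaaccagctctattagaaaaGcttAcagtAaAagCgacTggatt
Of 323 alignment columns 229 were identical (70.9%), and 71 bases of each are in capitals.

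The Ugt2 genes and 3 Sult1 genes form 1 cluster of 12 members on chr5:86889767-87591594, of which 6 were detected. In gene order, Ugt2b34 had 46.1 TPM in pup 1 and 55.7 TPM in pup 2, Ugt2b36 13.8 and 17.7 TPM, Ugt2b5 the values above, and Ugt2a3, whose human counterpart glucuronidates bile acids, 4.77 and 5.56 TPM. Ugt2b35, next to Ugt2b36, had 0.67 and 1.29 TPM and passed 1 TPM in pup 2 alone. Ugt2b34 was below Ugt2b5 by 1.86-fold and 1.69-fold, and above Ugt2b36 by 3.35-fold and 3.14-fold, Ugt2a3 by 9.67-fold and 10.0-fold and Ugt2b35 by 68.9-fold and 43.2-fold. Ugt2b1, Ugt2b37, Ugt2b38 and Ugt2a2 each had at most 4.1 expected counts in a pup. Ugt2b38 and Ugt2b37 were 97.0% and 94.7% identical to Ugt2b5 in coding sequence. Outside the clusters, Ugt8a, the galactosyltransferase of myelin lipids, had 0.55 and 0.36 TPM, and Ugt3a1 and Ugt3a2, whose human counterparts use other sugar donors, had no read.

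Sulfotransferase RNA came mainly from 2 neighbouring genes at the far end of the same chromosome 5 cluster. Sult1b1, which sulfates thyroid hormones and phenols, had 224 TPM in pup 1 and 238 TPM in pup 2, and Sult1d1, which sulfates catecholamines, had 168 and 194 TPM. Sult1b1 was above Sult1d1 by 1.33-fold and 1.23-fold per length, but counts without length scaling put Sult1d1 first, with a log2 ratio of -0.63, as its transcript of 2420 bases is the longer. Sult1b1 held 46.6% and 44.8% of the Sult TPM. Sult1e1, the estrogen sulfotransferase 6942 bases beyond Sult1d1, had no read in pup 1 and 1 read in pup 2.

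Other detected sulfotransferases were Sult6b2, Sult2b1, Sult1a1, Sult4a1 and Sult5a1. Sult6b2 (chr6:142785204-142804502) had 47.4 TPM in pup 1 and 56.0 TPM in pup 2, but most of it was assigned to Sult6b2-202, a transcript annotated for nonsense-mediated decay, with 32.1 and 38.5 TPM, and the coding transcript Sult6b2-201 had 15.3 and 17.5 TPM. Sult6b2 was the only detected member with most of its TPM outside coding transcripts, which held 32.2% and 31.3%. Sult2b1 (chr7:45729983-45784669), which sulfates cholesterol, had 29.3 and 29.7 TPM, below Sult1b1 by 7.64-fold and 8.03-fold. Sult1a1, the phenol sulfotransferase, had 5.49 and 6.55 TPM, Sult4a1, a brain form of unknown substrate, 3.21 and 2.86 TPM, and Sult5a1 2.29 TPM in both pups. Sult1b1 exceeded Sult1a1 by 40.8-fold and 36.4-fold, and Sult4a1 exceeded Sult5a1 by 1.40-fold and 1.25-fold.

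The hydroxysteroid sulfotransferases of the Sult2a cluster were silent. The 8 genes on chr7:13623967-14494230, over 870 kb, act on bile acids and dehydroepiandrosterone in liver, and together they received 1 read, assigned to Sult2a2 in pup 1. Sult2a1, Sult2a3, Sult2a4, Sult2a5, Sult2a6, Sult2a7 and Sult2a8 had none. Set against the limit of 3 counts per library for Sult2a8, Sult2b1 was at least 564-fold higher in pup 1 and at least 437-fold higher in pup 2. Sult1c1, Sult3a1 and Sult3a2 also had no read. Sult6b1 had 0.20 TPM in both pups, and Sult1c2 had 0.75 and 1.72 TPM from 47 and 83 counts, below Sult1d1 by 224-fold and 113-fold.

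**Figure D3:**
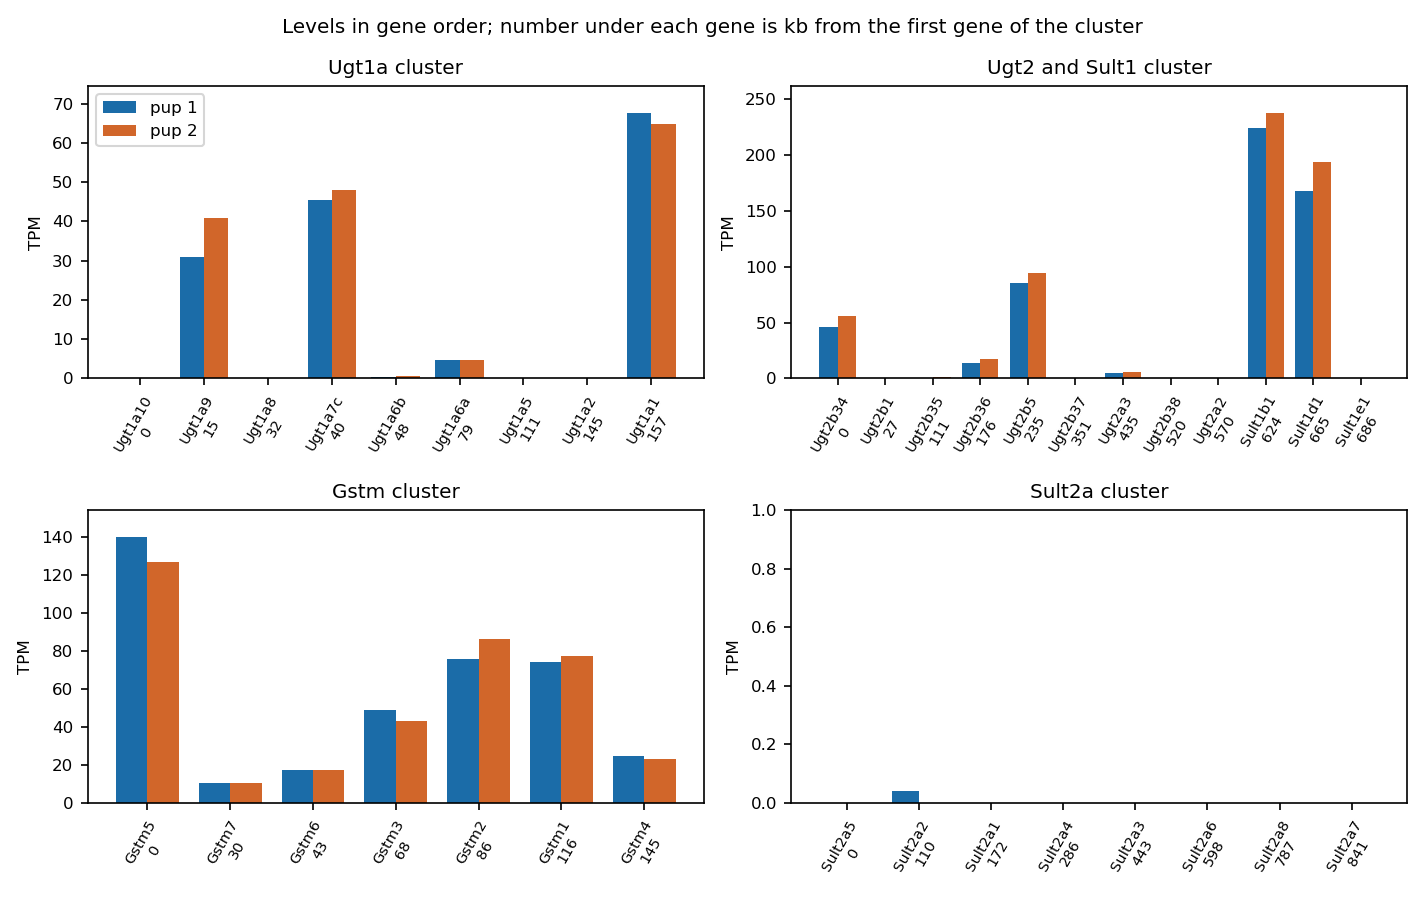
TPM (linear scale) in pup 1 and pup 2 for the genes of 4 clusters in chromosome order, with the distance in kb from the first gene under each name. The Gstm cluster has every gene above 10 TPM, the Ugt1a and Ugt2 and Sult1 clusters mix expressed and silent neighbours, and the Sult2a cluster holds 1 read.

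No member was over 2-fold apart between the littermates. The comparison between pups took rounded expected counts, scaled by TMM library sizes, and is given as pup 1 over pup 2 with an exact 95% interval, and a gene counted as over 2-fold apart where the interval lay wholly above 2 or below 0.5. This scaling differs from TPM, whose family sums had ratios of 0.928 for Gst, 0.901 for Ugt and 0.906 for Sult. By this rule 0 of the 43 members with a summed count of 10 or more were over 2-fold apart, against 0.796% of 19088 genes tested, 0.367% higher in pup 1 and 0.43% higher in pup 2. A count of 0 among 43 members is near that share. Sums of counts gave ratios of 0.971 (0.960 to 0.981) for Gst, 0.944 (0.927 to 0.962) for Ugt and 0.934 (0.918 to 0.950) for Sult.

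Where an interval excluded 1, pup 1 was more often the lower of the pups. The interval lay wholly below 1 for 15 of the 43 members, against 13.0% of all genes tested, and wholly above 1 for 6, against 16.6%. Among detected members it lay below 1 for 11 of 35 and above 1 for 5, where 14.8% and 20.6% of all detected genes did so. The share of such intervals grows with the count of a gene, and with 1 library per pup they do not measure how much pups vary.

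The alpha class was lower in pup 1. The ratio of its summed counts was 0.789 (0.762 to 0.816), and 3 of its 4 genes had intervals below 1: Gsta4 at 0.675 (0.604 to 0.754), Gsta2 at 0.752 (0.707 to 0.800) and Gsta1 at 0.796 (0.758 to 0.836). Gsta3 was at 1.01 (0.903 to 1.12), with its interval across 1. The mu class ran the other way, with a summed ratio of 1.06. Gstm3 was at 1.18 (1.10 to 1.26), Gstm5 at 1.16 (1.10 to 1.22) and Gstm4 at 1.13 (1.03 to 1.23), all higher in pup 1, while Gstm2 was at 0.914 (0.864 to 0.967). Gstk1 was at 1.15 (1.00 to 1.31), and its interval held 1 when scaled to total counts (1.12, 0.976 to 1.28). Gsto1 was at 0.953.

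Among Ugt genes, Ugt1a9 was at 0.796 (0.751 to 0.843), Ugt2b36 at 0.844 and Ugt2b34 at 0.868, all lower in pup 1, with Ugt2b5 at 0.956. Ugt1a1 was higher in pup 1 at 1.09 (1.05 to 1.14). Among members under 1 TPM in a pup, Ugt8a was at 1.58 (1.04 to 2.45), Ugt2b35 at 0.544, Ugt1a6b at 0.551 and Ugt1a10 at 0.241 with an interval from 0.0425 to 0.934. With posterior mean counts the interval of Ugt1a10 held 1 (0.402, 0.137 to 1.06). Among Sult genes, Sult1d1 was at 0.910, Sult6b2 at 0.880 and Sult1c2 at 0.454 (0.310 to 0.657), all lower in pup 1, whereas the interval of Sult1b1 held 1. In the same comparison the gastric markers were at 0.199, red cell markers at 0.693, exocrine pancreas markers at 0.718, general epithelium markers at 1.08, enterocyte markers at 1.16, goblet markers at 1.18 and the posterior HOX genes at 7.07. The enterocyte sum is mostly Apoa4, at 1.20. Of the 8 enterocyte markers 6 had intervals above 1, against 20.6% of all detected genes. The other 2, Vil1 at 0.93 and Lct at 0.914, had intervals below 1, against 14.8%. The glia, fibroblast, smooth muscle, hepatocyte, neuron and colon lists lay between 0.954 and 1.04 in sum, and the kidney list, near 0 TPM, was at 0.401 (0.137 to 1.06). Members of the colon list went opposite ways, and its sum does not measure colon content. Hoxa13, Hoxb13, Hoxd13 and Car4 were under 1 TPM in both pups. Car1 had 235 counts in pup 1 and 0 in pup 2, with an interval wholly above 2. Fabp6, which is not particular to the colon, was at 1.51 and Aqp8 at 1.41, while Slc26a3 was at 0.869. The part of these lists in the differences between pups was not tested.

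**Figure D4:**
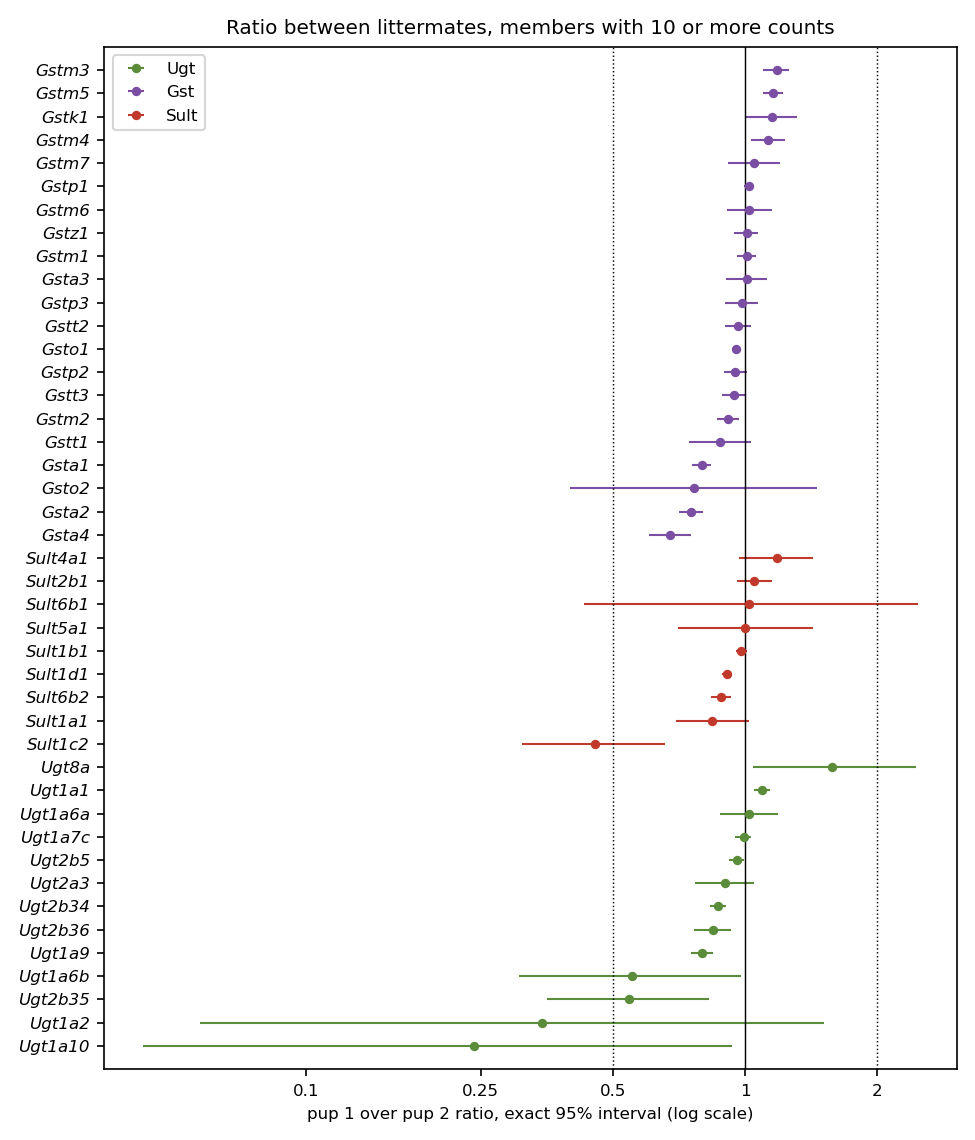
Pup 1 over pup 2 ratio of TMM-scaled counts (log scale) for the 43 members with 10 or more counts, coloured by family, with bars for the exact 95% interval (counting error), a solid line at 1 and dotted lines at 0.5 and 2. No interval lies wholly outside the dotted lines, and Gsta4, Gsta2 and Gsta1 lie left of 1.

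Genes that make the donors and cut or carry the conjugates were mostly detected, in lists chosen with earlier results of these data known. Beside the counts here and below, 59.1% of all protein-coding genes were detected. On the glucuronide side all 8 listed genes were detected. Ugdh, which makes UDP-glucuronic acid, had 278 TPM in pup 1 and 276 TPM in pup 2, Gusb, the lysosomal glucuronidase, had 208 and 204 TPM, and Ugp2, which makes UDP-glucose, had 125 and 122 TPM. Ugdh alone was thus near the summed level of the Ugt genes. On the sulfate side all 12 listed genes measured were detected. Bpnt1, which clears the used donor, had 236 and 245 TPM, Papss1, a PAPS synthase, had 119 and 132 TPM, and Slc26a2, a sulfate transporter, had 39.1 and 47.3 TPM. Papss2, the other PAPS synthase, had 25.7 and 20.6 TPM, below Papss1 by 4.62-fold and 6.42-fold.

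On the glutathione side 13 of 15 listed genes were detected, led by Esd, an S-formylglutathione hydrolase, at 371 TPM in pup 1 and 381 TPM in pup 2. Gclm and Gclc are the regulatory and catalytic subunits of the enzyme that limits glutathione synthesis. Gclm had 223 and 232 TPM, Gss, glutathione synthetase, had 178 and 170 TPM, and Gclc had 15.8 and 10.3 TPM. Gclc was below Gclm by 14.2-fold and 22.5-fold, and it was higher in pup 1 at 1.60 (1.48 to 1.74). Not detected were the cystine transporter Slc7a11, at 0.10 and 0.04 TPM, and the glutathione-cleaving enzyme Chac1, at 1.10 and 0.85 TPM. Among the membrane-bound glutathione transferases and relatives with a similar fold, all 13 measured were detected, led by Mgst1 with 632 and 631 TPM, Mgst3 with 260 and 244 TPM and Clic1, a chloride channel protein of that fold, with 251 and 234 TPM. Mgst1 lay at the level of Gsto1 and Gstp1.

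Among 7 exporters of conjugates, all detected, Abcg2, an apical exporter of sulfate conjugates, had 108 TPM in pup 1 and 119 TPM in pup 2, Abcc2, an apical exporter of glucuronides and glutathione conjugates, had 69.7 and 99.0 TPM, and Abcb1a, a P-glycoprotein, had 18.7 and 17.7 TPM. Abcc3, the basolateral counterpart, had 2.54 and 3.09 TPM, below Abcc2 by 27.4-fold and 32.0-fold. Abcc2 was lower in pup 1 at 0.773 (0.752 to 0.795). Of 11 other conjugating enzymes 7 were detected, among them the arsenic methyltransferase As3mt at 36.3 and 38.1 TPM and the arylamine acetyltransferase Nat2 at 20.3 and 23.1 TPM. Nat1 was at 0.02 and 0.03 TPM, and the indolethylamine methyltransferase Inmt was at 0.09 TPM in pup 1 and 0 TPM in pup 2. No gene of these lists was over 2-fold apart between pups, where 0.796% of all genes tested were.

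**Figure D5:**
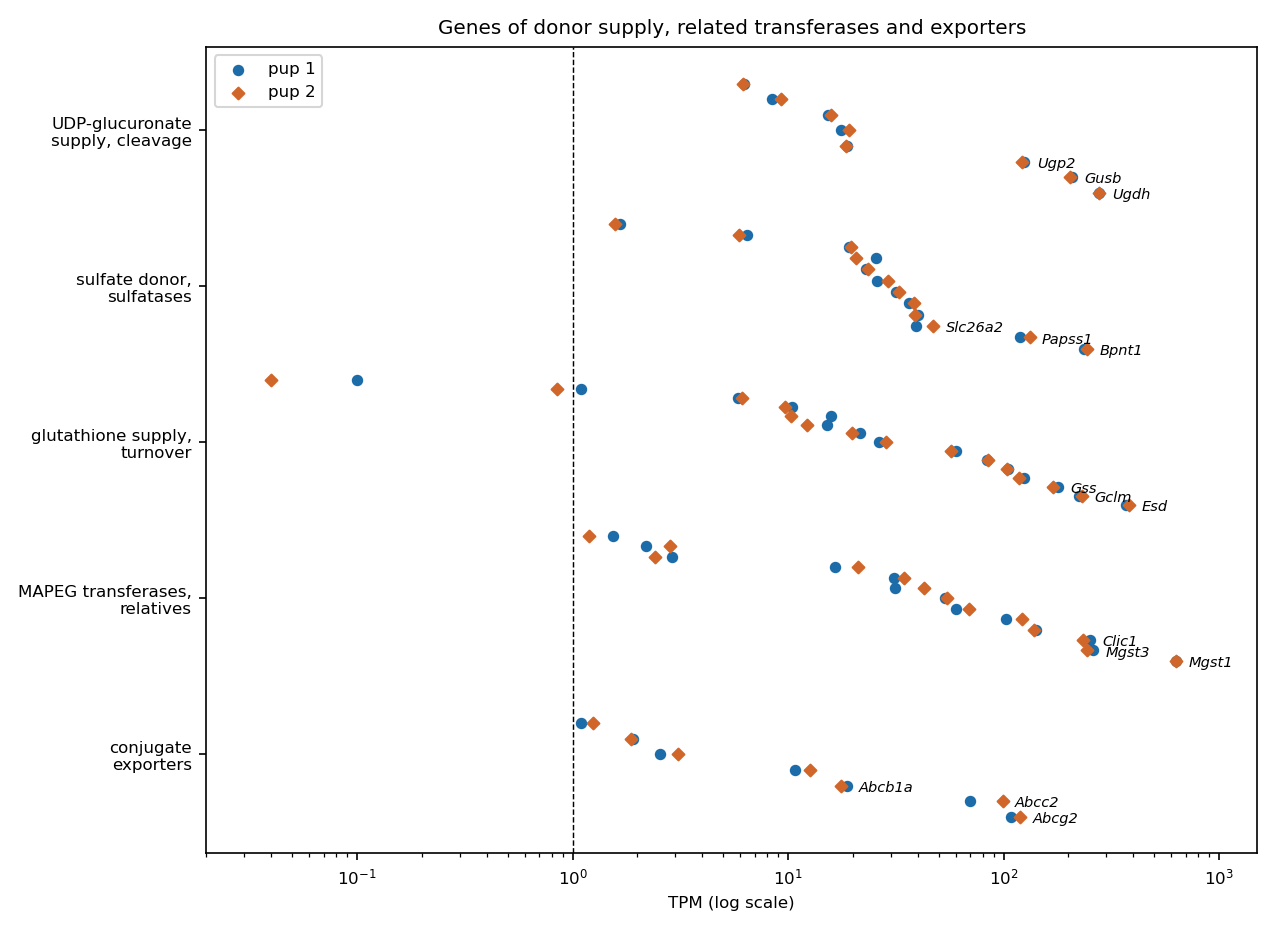
TPM (log scale) in pup 1 (circles) and pup 2 (diamonds) of the genes of 5 lists, 1 row of points per gene within each list, with the 3 highest of each list named and a dashed line at 1 TPM. Slc7a11 and, in pup 2, Chac1 are the points left of the line.

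Of 21 listed regulators of these families 20 were detected, where 59.1% of all protein-coding genes were. Nr1h4, the bile acid receptor FXR, had 94.2 TPM in pup 1 and 111 TPM in pup 2, Cdx1, an intestinal homeobox factor, had 98.7 and 96.4 TPM, and Nfe2l2, the NRF2 factor that binds antioxidant response elements, had 75.1 and 78.7 TPM. The xenobiotic receptors Nr1i2 (PXR) and Nr1i3 (CAR) had 18.6 and 20.9 TPM and 24.8 and 31.2 TPM, with Nr1i2 below Nr1i3 by 1.33-fold and 1.50-fold, an order that turns round without length scaling. All 7 listed NRF2 targets outside the families were detected. By mean level Gclm led, then Srxn1 at 83.3 and 82.2 TPM and Txnrd1 at 50.9 and 48.3 TPM. Hmox1, the heme oxygenase, had 57.0 and 28.2 TPM, above Txnrd1 in pup 1 alone, and its ratio of 2.11 (1.97 to 2.26) had an interval that reached below 2. Of 6 listed targets of the aryl hydrocarbon receptor (AHR) 3 were detected, namely Nqo1 at 24.6 and 27.4 TPM, Tiparp at 20.6 and 20.1 TPM and Cyp1b1 at 2.63 and 3.12 TPM, while Cyp1a1 was at 0.04 and 0.07 TPM and Cyp1a2 had no read.

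Promoters from RefSeq were found for 56 of the 64 members, 67 promoters in all. The antioxidant response element core TGACNNNGC, searched on both strands, was in 3 of them (4.48%), against 12.4% of 32851 mouse promoters of the same length. All 3 belong to detected Gst genes, where 32 of the 56 genes with a promoter were detected. A count of 3 is too small to link the motif to detection. The matches are shown in capitals with 10 bases on either side. They lie at chr1:21240454-21240482 (plus strand) for Gsta3, chr3:107895802-107895830 (plus) for Gstm5 and chr3:107931725-107931753 (minus) for Gstm7. The matches start 121, 42 and 129 bases before the RefSeq start of their window. For Gstm7 that start and the match lie inside the annotated gene (chr3:107926334-107931817). The Gstm7 window at the annotated gene start, chr3:107931768-107932067, holds no match.
Gsta3: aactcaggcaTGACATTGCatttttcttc
Gstm5: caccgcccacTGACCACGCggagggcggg
Gstm7: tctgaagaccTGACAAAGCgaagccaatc
The AHR core GCGTG, on both strands, was in 14 member promoters of 12 genes (20.9%), against 32.4% of all promoters, and in Gstm5 it overlapped the antioxidant core. The HNF1 palindrome was in no member promoter and in 3 of all promoters (0.00913%), too rare for its absence from 67 promoters to tell anything. The Gstp1, Gstp2, Ugt1a9 and Ugt1a10 windows above hold no match to the antioxidant core, which says only that these letters are not in these windows. The GC content of promoters had a median of 53.0% for detected members and 37.1% for the other members, against 52.7% for all promoters. Nearly all Gst genes were detected and most Ugt and Sult genes were not. This contrast therefore cannot be told apart from a difference between families. Windows of the same gene were counted separately.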

How the data were processed

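Both libraries were measured by RNA-seq of the newborn intestine. The authors deposited, per the file headers, a gene and a transcript table for each library with the expected count (estimated reads, shared reads divided), TPM and FPKM scaled to effective length, posterior mean counts with their standard deviation, and the percent of a gene's abundance held by each transcript. The build was mm10 with GENCODE M4, per the deposited text file. No source used here names an aligner or a quantifier, or says whether strand was used. Without strand, reads of overlapping genes on opposite strands cannot be told apart.

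Symbols, biotypes, exons and coding sequences came from GENCODE M21 on the same assembly (GRCm38), matched by gene identifier for 42462 of 43346 genes (98.0%), and promoters from RefSeq GRCm38.p6. Promoters on mouse chromosome 18 were left out of the motif search. In 62 of 67 member promoters the last 20 bases were found in a transcript of the gene. Expected counts were rounded for the ratios between pups. Library sizes came from TMM in edgeR 4.0.16 and, as an alternative, DESeq2 1.42.0. Exact (Clopper-Pearson) 95% intervals came from SciPy. A pseudocount of 0.1 TPM was added on the log2 scale, and identity came from global alignment in Biopython. Protein identity was not used here, and coding identity stands in its place.

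Named are all detected members and, of the others, those with no read, those over 2-fold apart and those of a fixed pair, and of the other lists the 3 highest, those of a fixed pair and up to 3 under 0.1 TPM. A gene that meets this rule is not reported here. Marker genes, Gstp-ps, Gm10639, Slc7a11, Chac1, Hmox1 and the low members named for their place in a cluster were named after their values were seen. The members, lists and pairs were chosen with earlier results of these data known. Libraries are littermates, so the SD over 2 pups covers the spread between these samples alone. Thresholds, pseudocounts, scaling, posterior means and single pups were tried as alternatives.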

Additional observations from a re-analysis of the deposited data

How the results depend on the processing

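No paired analysis was possible because both libraries belong to 1 group. Counts of detected members stayed within 1.5 times under every alternative tried: thresholds of 0.5 and 5 TPM gave 38 and 31 members in place of 35, and leaving out pup 1 or pup 2 gave 37 and 35. No member was over 2-fold apart under any of 5 alternatives, where the main rule called 0.796% of all genes tested. Summed TPM moved the ratio between pups to 0.928 for Gst, 0.901 for Ugt, 0.906 for Sult and 0.921 for all members, without a change of direction. As means of the pups, differences between family medians kept their sign, and they moved with the weight of silent genes. Over detected members alone, Gst over Ugt had opposite signs in the 2 pups. For Gst over Ugt, a pseudocount of 1 gave 4.95, 0.01 gave 6.92, detected members alone 0.07, means 4.73, posterior mean TPM 6.16 and single pups 6.49 to 6.66. For Gst over Sult the same alternatives gave 5.35, 11.96, 0.54, 5.47, 7.86 and 8.59 to 8.69, and for Ugt over Sult 0.40, 5.03, 0.46, 0.74, 1.70 and 1.93 to 2.20. Without length scaling, the share of Ugt2b5 was 22.1%, that of Gstp1 21.6% with Gsto1 ahead, and that of Sult1b1 33.0% with Sult1d1 ahead, and coding transcripts alone put Sult1b1 at 49.8%. Without length scaling 3 log2 ratios reversed, to 0.20 for Gstm1 over Gstm2, -0.63 for Sult1b1 over Sult1d1 and 0.17 for Nr1i2 over Nr1i3. Scaling to total counts made the intervals of Gstp2, Gstt3, Sult1a1 and Sult1b1 lie below 1 and let that of Gstk1 hold 1, and posterior mean counts let that of Ugt1a10 hold 1. The cause was not tested. Members under about 10 counts could not be compared between pups at this depth.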
